A study of Mus musculus with 6 samples.

Results

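The 10 genes described here belong to the inflammasome and to pyroptosis, and were followed in activated mouse macrophages with and without a myeloid mutation of hnRNPD, the gene of the RNA-binding protein AUF1. They were chosen by symbol: the sensors Nlrp3, Aim2, Nlrc4 and Naip5, the adaptor Pycard, the proteases Casp1, Casp4 and Casp8, the pore-forming protein Gsdmd and the cytokine Il18, which are 10 of the 55254 gene symbols in the deposited count table. Bone marrow-derived macrophages (BMDMs) of C57BL/6J mice were grown for 10 days in medium conditioned by L929 cells, a source of macrophage growth factor, and every culture then received lipopolysaccharide (LPS) at 100 ng/ml for 4 hrs. The 3 control libraries had the genotype hnRNPDfl/fl and the 3 M-Δx3,4 libraries LysCre+hnRNPDfl/fl, so both groups carried the floxed alleles and only M-Δx3,4 carried Cre. LysM-Cre is active in myeloid cells and removes exons 3 and 4 of the floxed gene. No group was left without LPS, and induction by LPS cannot be read from these libraries. Nothing in the sources used here says whether libraries of a group came from separate mice, so every p-value measures only the spread between these libraries.

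Inflammasomes are cytosolic protein complexes that form when a sensor meets a microbial or danger signal. The sensor recruits caspase-1, often through the adaptor ASC, and caspase-1 matures IL-1β and IL-18 and cleaves gasdermin D, whose pores let the cytokines out and kill the cell by pyroptosis. LPS primes this system in macrophages through TLR4 and NF-κB, and LPS that reaches the cytosol is bound by caspase-11, the product of Casp4 in the mouse. Many of these steps are set by protein assembly and cleavage, which mRNA counts do not measure.

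None of the 10 mRNAs passed a test of the difference between M-Δx3,4 and control BMDMs. The log2 fold changes of the 9 genes tested ran from -0.63 for Nlrp3 to 0.63 for Aim2, with 4 higher and 5 lower in M-Δx3,4. Their median of -0.03 lay beside a median of -0.01 over all 11873 genes tested. No gene of the 9 reached an unadjusted p under 0.05 with edgeR, DESeq2 or limma-voom, against 3.98% of all genes tested with edgeR. In none of the 10 were the 3 control and the 3 M-Δx3,4 libraries apart, against 8.44% of all genes tested. After Benjamini-Hochberg adjustment the smallest adjusted p among the 9 was 0.984 in edgeR's quasi-likelihood test. The number of genes with an adjusted p under 0.05 was 0 over the whole table in that test and 2 in DESeq2. It was 53 in edgeR with no filter on low counts and 29 without control replicate 1, and in none of these fits was it reached by a gene of the 10. Of the 9, 2 (Casp1 and Pycard) had a 95% confidence interval that stayed between log2 fold changes of -1 and 1. For the other 7 a change of 2-fold in at least 1 direction lies within the interval.

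The libraries were made from the 3′ ends of mRNAs, and reads were counted on the 3′ UTR regions of annotated transcripts. The summed counts were 5852374 to 6666525 in control and 6627536 to 9008878 in M-Δx3,4. For each gene the transcript with most counts on average is given, in counts divided by a factor for the size of the library (normalized counts). For the mutated gene, the hnRNPD transcript of the p37 isoform had 177.8, 104.2 and 69.6 normalized counts in control and 52.8, 12.6 and 16 in M-Δx3,4, with every M-Δx3,4 library below control. The hnRNPD transcript with most counts, ENSMUST00000172361, had 335.9, 185.9 and 104.4 in control and 137.9, 124.3 and 160.5 in M-Δx3,4, which overlapped (log2 fold change -0.57, and -0.04 without control replicate 1). Counts of 3′ ends do not show whether exons 3 and 4 are present, so this check of the labels is a partial one. Control replicates 1 and 3 stood farthest from each other, with a correlation of 0.764, the lowest of any pair of libraries. Correlations were taken over the 4723 genes with the highest mean counts. Control replicate 3 correlated at 0.764 to 0.895 with the other libraries. Control replicate 1 correlated at 0.904 to 0.971 with all but control replicate 3. All 10 macrophage markers were found, with overlapping sums. The summed level of 7 B cell markers was 301.0 to 358.5 normalized counts in control and 142.7 to 165.3 in M-Δx3,4, and that of 7 T and NK cell markers was 45.3 to 55.8 and 25.4 to 42.7, with Cd3e, Cd3g, Ncr1 and Klrb1c at 0 in every library. Sums of neutrophil, dendritic cell and stromal cell markers overlapped between the groups, with Elane and Cd209a at 0. Among single markers tested, 1 of 10 for macrophages, 1 of 4 for B cells and 1 of 6 for stromal cells had an unadjusted p under 0.05 (edgeR). For neutrophils, T and NK cells and dendritic cells the number was 0. Over all genes tested the share was 3.98%. In such bulk RNA fewer cells of a type and less RNA per cell cannot be told apart, and the part of these cells in the values below was not tested.

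AUF1 binds AU-rich elements, and the pentamer ATTTA is the core of many of them. It was searched on the sense strand of the annotated 3′ UTR of each gene in the GENCODE vM21 annotation of GRCm38 (mm10), with overlapping matches counted. It occurred in 7 of the 10 genes and in 69.6% of 9690 genes with a 3′ UTR. Nlrp3 held the most of the 10. Its 3′ UTR of 692 bases had 5 pentamers, where 2.5% of 1101 genes with a 3′ UTR of 0.8 to 1.2 times that length had as many and the median was 1. All 5 lay in the last stretch of the UTR, starting at bases 567, 588, 617, 649 and 685 after the stop codon. Casp8 held 3 in 749 bases (14.4% of genes of similar length had as many), Casp4 held 2 in 254 bases (7.6%), and Pycard held 3 in 3004 bases (73.6%). Nlrc4 held 2, Aim2 and Il18 held 1 each, and Casp1, Gsdmd and Naip5 held none. For Casp1 and Pycard the UTR was that of ENSMUST00000027015 and ENSMUST00000033056. These are not the transcripts with most counts, whose fold changes are given for the 2 genes below. A match is a run of letters and not a measured binding site. Shown for the genes with the densest pentamers and for Il18 are 30 bases of the sense strand, with the pentamers in capitals. All 4 lie in 3′ UTR exons on the plus strand, at chr11:59566827-59566856 for Nlrp3, chr9:5336728-5336757 for Casp4, chr1:58846836-58846865 for Casp8 and chr9:50581798-50581827 for Il18.
Nlrp3: gagATTTAtaaaacccatttttgtATTTAt
Casp4: ATTTAccaaaagagaaatttgttttATTTA
Casp8: ttgcttttgaATTTAcATTTAcataatttt
Il18: ccgaggctgcatgATTTAtagagtaaacac
Set beside the counts, Nlrp3 (the most pentamers) and Aim2 (1 pentamer) had the largest log2 fold changes of the 10, in opposite directions. Neither passed the test, and a relation between pentamers and fold changes was not tested.

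**Figure D1:**
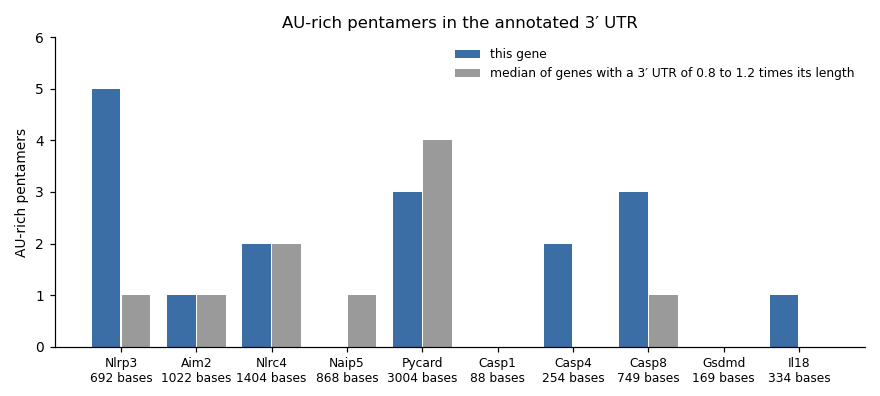
AU-rich pentamers in the annotated 3′ UTR of each of the 10 genes (vertical axis, number; blue bars), with the UTR length under each name, beside the median number in genes with a 3′ UTR of similar length (grey bars). Nlrp3 has 5 against a median of 1, and Pycard has 3 against a median of 4. The UTRs of Casp1 and Pycard are those of ENSMUST00000027015 and ENSMUST00000033056, not of their transcripts with most counts.

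Nlrp3, the sensor that responds to potassium efflux, crystals and membrane damage, lies at chr11:59541568-59566956 on the plus strand and was counted over the 3′ UTR and 248 bases past the annotated end. Its transcript ENSMUST00000079476 had 110.4, 95 and 268.0 normalized counts in control and 131.1, 57.3 and 116.2 in M-Δx3,4. Control replicate 3 was above every other library, and the remaining 5 libraries were mixed between the groups. The means were 157.8 ± 95.7 in control and 101.5 ± 39.0 in M-Δx3,4 (SD, n = 3 libraries). The log2 fold change was -0.63 (95% confidence interval -1.59 to 0.33), with an adjusted p of 0.984 by edgeR's quasi-likelihood test and p = 0.6 in an exact permutation test (two-sided, where 3 against 3 libraries cannot go below 0.1). Without control replicate 3 the log2 fold change was -0.00.

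Aim2, the sensor of cytosolic double-stranded DNA (chr1:173350879-173466040, plus strand), was the only one of the 10 whose highest library was an M-Δx3,4 library. ENSMUST00000147604 had 36.0, 26.6 and 17.4 normalized counts in control and 34.2, 30.1 and 58.8 in M-Δx3,4. The groups overlapped, since control replicate 1 lay above M-Δx3,4 replicates 1 and 2. With means of 26.7 ± 9.3 and 41.1 ± 15.5, the log2 fold change was 0.63 (95% confidence interval -0.33 to 1.58, adjusted p = 0.984 by edgeR's quasi-likelihood test, exact permutation p = 0.3). It stayed above 0 with any 1 library left out, from 0.27 without M-Δx3,4 replicate 3 to 0.90 without control replicate 1. A second Aim2 transcript, ENSMUST00000151176, is counted over 249 bases that lie mostly in an intron of the gene. It had 3, 1 and 0 raw counts in control and 1, 9 and 15 in M-Δx3,4, so its control libraries were at or under the floor of 3 counts and M-Δx3,4 replicate 1 was too.

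Naip5, which binds bacterial flagellin, and Nlrc4, the partner that assembles on it, were the least abundant of the 10. Naip5 (chr13:100211739-100246323, minus strand, ENSMUST00000049789) had 22.1, 11.2 and 12.8 normalized counts in control and 14.7, 3.9 and 18.3 in M-Δx3,4. The lowest library was M-Δx3,4 replicate 2 and the groups overlapped (log2 fold change -0.30, 95% confidence interval -1.59 to 0.99, exact permutation p = 0.6). Naip5 is 1 of a family of neighbouring, closely related genes, and how reads that fit more than 1 of them were counted is not given in the sources used here. For Nlrc4 (chr17:74425438-74459142, minus strand, ENSMUST00000052124) there were 4, 3 and 0 raw counts in control and 4, 4 and 2 in M-Δx3,4. No library exceeded 4.89 normalized counts, the limit that a transcript had to pass in at least 1 library to be tested, and a difference was not detectable at this depth. The library with 0 counts allows up to 3 counts, or 3.48 normalized counts. With no filter on low counts the Nlrc4 log2 fold change was 0.24 with a standard error of 1.21.

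**Figure D2:**
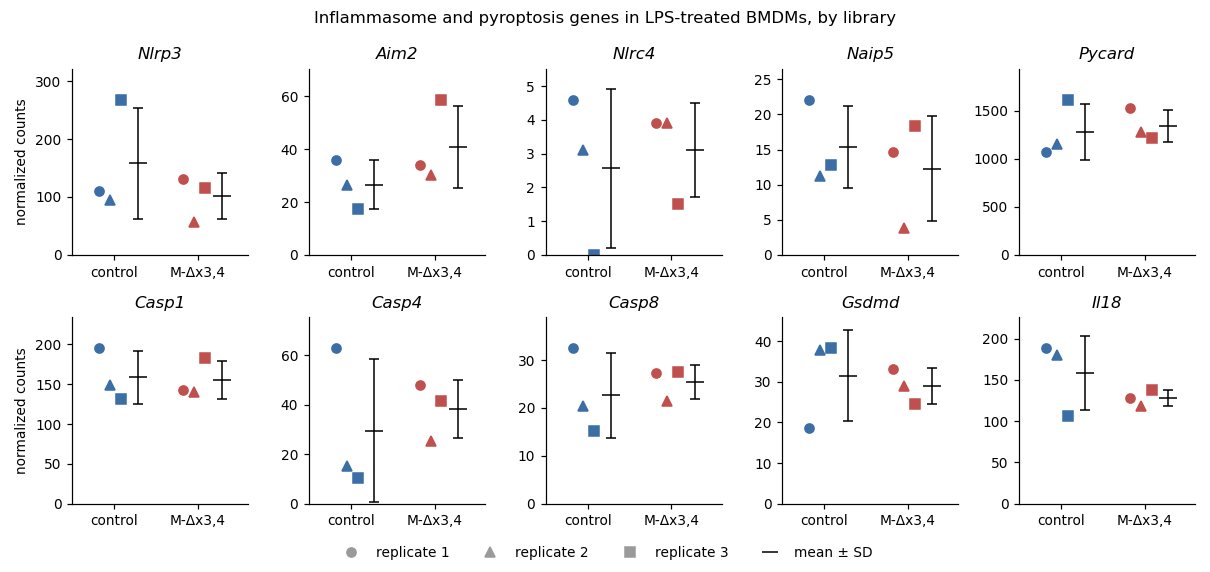
Normalized counts of the 10 genes in the 3 control and the 3 M-Δx3,4 libraries, each point 1 library and each black line the group mean ± SD, on a linear axis of its own for each gene. The groups overlap for every gene, and the control points of Casp4 run from 10.4 to 62.8.

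Pycard encodes ASC, the adaptor whose filaments join sensors to caspase-1, and held the most counts of the 10. ENSMUST00000205594 had 1069.3, 1153.5 and 1613.8 normalized counts in control and 1529.8, 1273.0 and 1219.7 in M-Δx3,4. Control replicates 1 and 2 were the lowest and control replicate 3 the highest of the 6 libraries, so the M-Δx3,4 values lay within the control range. The means were 1278.9 ± 293.1 and 1340.8 ± 165.8, and the log2 fold change was 0.07 (95% confidence interval -0.57 to 0.71, adjusted p = 0.996 by edgeR's quasi-likelihood test, exact permutation p = 0.7). Pycard lies on the minus strand at chr7:127989708-127993867, and most of these counts were listed for a region of a single base, chr7:127992711-127992711, directly after the stop codon. That base had 920, 1129 and 1390 raw counts in control and 1564, 1307 and 1595 in M-Δx3,4. The region of 3253 bases counted for ENSMUST00000033056 contains it and had fewer, from 558 to 1079 in the 6 libraries. The study's methods state that regions were extended on both sides before reads were counted, so a listed region can hold reads from outside its borders, but not why the larger region had fewer. Both ways of counting gave a like difference, since ENSMUST00000033056 had a log2 fold change of 0.08.

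Casp1, the protease that matures IL-1β and IL-18, and Casp4 are neighbours on the plus strand of chromosome 9, at chr9:5298517-5307265 and chr9:5308828-5336783. Casp1 had 195.3, 149.2 and 131.1 normalized counts in control and 142.8, 139.8 and 183.4 in M-Δx3,4 (ENSMUST00000238730). The M-Δx3,4 values all lay within the control range, and the means of 158.5 ± 33.1 and 155.3 ± 24.3 gave a log2 fold change of -0.03 (95% confidence interval -0.75 to 0.69, adjusted p = 0.998 by edgeR's quasi-likelihood test, exact permutation p = 0.8). This transcript was counted over 4 regions, of which the first 2 are coding exon in GENCODE vM21 and the third is nearly all coding exon. The last region, which ends the gene, held 33.3%, 43.8% and 50.4% of the transcript's counts in control and 37.7%, 45.8% and 34.6% in M-Δx3,4, with no difference beyond the spread of the libraries (42.5% ± 8.6 against 39.4% ± 5.8, exact permutation p = 0.7). ENSMUST00000238348, counted over 249 bases just past the annotated end of Casp1, varied much less among control libraries, at 65.1, 64.4 and 65.0 normalized counts. Its M-Δx3,4 libraries had 52.8, 64.1 and 61.1, all below the control values, but by as little as 0.3 counts (log2 fold change -0.13). This transcript was singled out after its values were seen.

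Casp4, whose product caspase-11 binds cytosolic LPS and opens the non-canonical route to pyroptosis, was the most variable of the 9 genes tested among the control libraries. ENSMUST00000027012 had 62.8, 15.3 and 10.4 normalized counts in control and 47.9, 25.2 and 41.3 in M-Δx3,4. Control replicate 1 was the highest library of all and control replicates 2 and 3 were the lowest, a 6.04-fold range within 1 group against a 1.90-fold range in M-Δx3,4. The means of 29.5 ± 28.9 and 38.1 ± 11.7 gave a log2 fold change of 0.38 (95% confidence interval -0.85 to 1.61, adjusted p = 0.984 by edgeR's quasi-likelihood test, exact permutation p = 0.8). This value moved with each control library left out. Without control replicate 1 every M-Δx3,4 library was above both remaining control libraries and the log2 fold change was 1.55. By edgeR's quasi-likelihood test the unadjusted p was then 0.0058 and the adjusted p 0.187. In that fit 16.0% of all genes tested had an unadjusted p under 0.05. The Casp4 log2 fold change was 0.06 without control replicate 2 and -0.01 without control replicate 3.

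Casp8, the initiator caspase of death receptors that can also act at the ASC speck, had 32.5, 20.4 and 15.1 normalized counts in control and 27.4, 21.4 and 27.5 in M-Δx3,4 (chr1:58795374-58847503, plus strand, ENSMUST00000027189). The control libraries fell in the same order as for Casp1 and Casp4, and the M-Δx3,4 values lay within their range. The log2 fold change was 0.17 (95% confidence interval -0.80 to 1.13, exact permutation p = 0.6).

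Gsdmd, the pore-forming substrate of caspase-1 and caspase-11, had 18.6, 37.8 and 38.3 normalized counts in control and 33.3, 29.1 and 24.5 in M-Δx3,4 (chr15:75862327-75867408, plus strand, ENSMUST00000023238). Here control replicate 1 was the lowest library. The means were 31.6 ± 11.2 and 28.9 ± 4.4, with a log2 fold change of -0.13 (95% confidence interval -1.05 to 0.79, adjusted p = 0.995 by edgeR's quasi-likelihood test, exact permutation p = 0.8). Il18, the cytokine that needs caspase-1 for its release, had 188.3, 179.8 and 106.7 normalized counts in control and 128.1, 118.5 and 137.6 in M-Δx3,4 (chr9:50554827-50581840, plus strand, ENSMUST00000213916). Control replicates 1 and 2 were above and control replicate 3 was below every M-Δx3,4 library. Its means were 158.3 ± 44.8 and 128.1 ± 9.5, a log2 fold change of -0.31 (95% confidence interval -1.05 to 0.44, adjusted p = 0.984 by edgeR's quasi-likelihood test, exact permutation p = 0.4). The Il18 difference kept its sign with any 1 library left out, from -0.51 to -0.16.

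**Figure D3:**
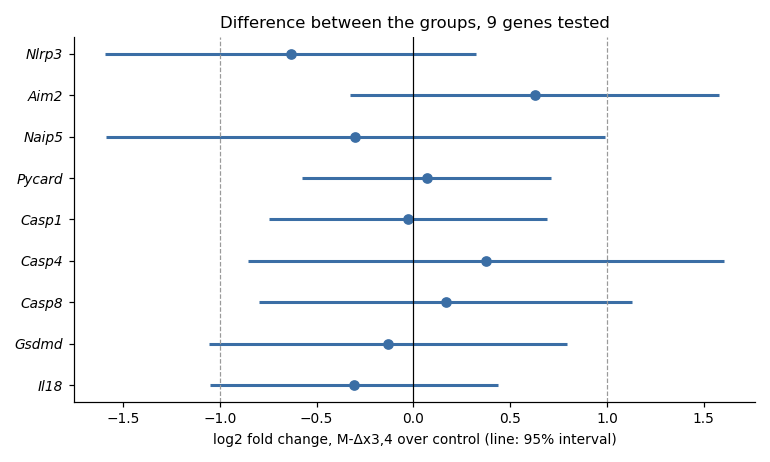
Log2 fold change of M-Δx3,4 over control for the 9 genes tested (horizontal axis), each point an estimate of edgeR and each line its 95% confidence interval. Every interval includes 0, and the longest belong to Naip5 (-1.59 to 0.99) and Casp4 (-0.85 to 1.61).

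The spread among the 10 genes lay mostly in the control group. In 8 of them the control SD was the larger of the 2, the exceptions being Aim2 and Naip5, and in none did the difference between the group means exceed the larger SD. Control replicate 1 held the highest value of 6 genes (Casp1, Casp4, Casp8, Il18, Naip5 and Nlrc4), and control replicate 3 held the highest value of 3 (Nlrp3, Pycard and Gsdmd). The lowest value of 6 genes was in control replicate 3 as well. These are the 2 libraries that stood farthest apart over the 4723 genes with the highest mean counts. Leaving out 1 library at a time changed the sign of the log2 fold change for 6 of the 9 genes tested, while Nlrp3, Aim2 and Il18 kept theirs. For Nlrp3 the value without control replicate 3 was -0.00, so its sign there has no weight.

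**Figure D4:**
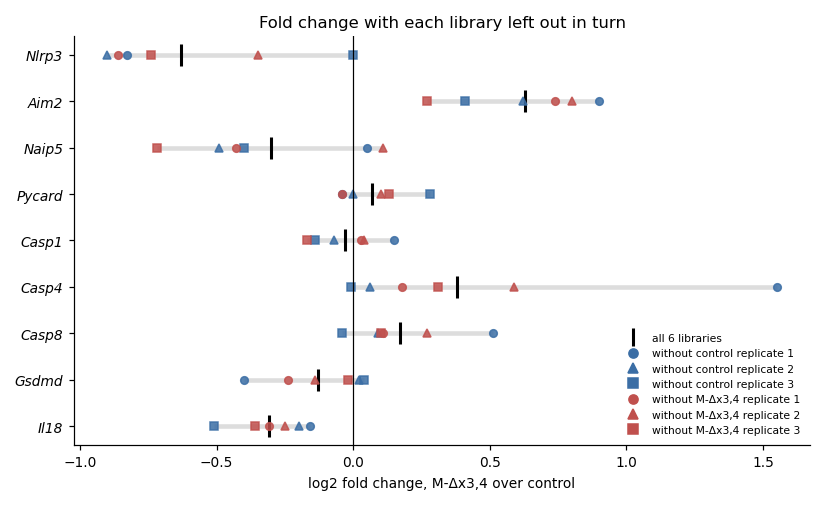
Log2 fold change of M-Δx3,4 over control for each gene tested with all 6 libraries and with 1 library left out at a time. Casp4 moves from -0.01 to 1.55 and Nlrp3 from -0.90 to -0.00, while Pycard stays between -0.04 and 0.28.

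None of the remaining transcripts passed the test either. With the 1 used for each gene, 32 transcripts had a count in at least 1 library and 26 were tested, and none of the 17 tested beside the chosen ones had an unadjusted p under 0.05. The 13 of these with a mean of at least 5 normalized counts had log2 fold changes from -0.63 to 0.63. Below that mean lay the Aim2 transcript ENSMUST00000151176, at 1.5 ± 1.8 in control and 7.1 ± 5.4 in M-Δx3,4 (normalized counts), with a fitted log2 fold change of 2.17 (95% confidence interval -0.34 to 4.68, unadjusted p = 0.085), which is no firm size with control at the floor. Its unadjusted p in edgeR's test was under 0.05 in 2 of the 6 fits that left out a library. These were the fits without control replicate 1 (fitted log2 fold change 3.47) and without M-Δx3,4 replicate 1. It was also under 0.05 with no filter on low counts. Without control replicate 1, 16.0% of all genes tested had an unadjusted p under 0.05. Transcripts of 1 gene are not independent, because they share reads, and 2 of them (ENSMUST00000101148 of Nlrp3 and ENSMUST00000166137 of Aim2) had the same counts as the transcript used. These 2 hold the values of -0.63 and 0.63, and the rest of the 13 ran from -0.30 to 0.18. Some Il18 and Casp8 transcripts also had the same counts as each other.

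Levels between genes were compared in the authors' TPM values, which divide each count by the length of the counted region and scale the sum of each library to the same total, although 3′-end counts need not grow with that length. For Casp1 and Pycard, ENSMUST00000027015 and ENSMUST00000033056 were taken. The transcripts used above were counted partly over coding exons (Casp1) or almost wholly on 1 base (Pycard). The Il18 transcript used above was kept, although 205 of its 583 counted bases are coding exon. Over the 6 libraries the mean TPM was 24.8 ± 5.01 for Casp1, 19.0 ± 2.29 for Pycard and 18.0 ± 4.63 for Il18. The ranges of these neighbours overlapped. By ENSMUST00000059081, whose region holds no coding exon, Il18 had 26.2 ± 6.75 TPM, so the order of Casp1, Pycard and Il18 depends on the transcript. Nlrp3 had 9.99 ± 5.22, Gsdmd 5.26 ± 1.22 and Casp4 5.04 ± 3.19 TPM. Aim2 followed with 1.96 ± 0.86, Casp8 with 1.79 ± 0.539, Naip5 with 0.915 ± 0.455 and Nlrc4 with 0.131 ± 0.0797 TPM. The choice matters for Pycard, whose ENSMUST00000205594 had 333.5 ± 51.8 TPM, above Casp1 in every library by either Casp1 transcript. Casp1 had 19.9 ± 4.17 TPM by ENSMUST00000238730. The choice matters for Casp8 too, which had 6.27 ± 2.23 TPM by ENSMUST00000190213, counted over 249 bases instead of 998. That mean lies above those of Gsdmd and Casp4. With each of these choices caspase-1, its adaptor and its substrate IL-18 were the most abundant and the flagellin sensors the least. In the order with ENSMUST00000033056, the ranges of neighbouring genes overlapped in each case except Naip5 and Nlrc4, where every Naip5 value lay above every Nlrc4 value.

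A wider list of the pathway held 75 other symbols, of which 69 were found and 53 tested. Most of the tested genes were lower in M-Δx3,4 (35 lower, 18 higher), with a median log2 fold change of -0.20 beside -0.01 for all genes, and 34.0% were higher where 49.5% of all genes were. By edgeR's quasi-likelihood test 3 of the 53 (5.66%, against 3.98% of all genes tested) reached an unadjusted p under 0.05, and none passed adjustment. All 3 were lower in M-Δx3,4. Of all genes tested, 2.53% had such a p and were lower and 1.45% had such a p and were higher. Libraries did not overlap for 6 of them (11.3%, against 8.44% of all genes): Mefv (pyrin), Nod1, Nod2, Il18bp and Irf1, each lower in M-Δx3,4, and Ripk1, which was higher. Over all genes tested, such libraries were lower in M-Δx3,4 for 4.25% and higher for 4.19%. The same control libraries enter each of these comparisons.

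Among the other sensors, 6 of 9 tested were lower. Nod1, the receptor of a peptidoglycan fragment, had 387.0, 251.3 and 440.9 normalized counts in control and 176.1, 161.2 and 178.8 in M-Δx3,4. Every M-Δx3,4 library was below every control library, with means of 359.7 ± 97.7 and 172.0 ± 9.5. The log2 fold change was -1.06 (standard error 0.33), with an unadjusted p of 0.00591 and an adjusted p of 0.984 by edgeR's quasi-likelihood test and an exact permutation p of 0.1, the smallest possible. The study's limits were a p under 0.05 and a change greater than 1 on the log2 scale, where its p combined several algorithms. Here both limits were set on edgeR's test alone, as an unadjusted p under 0.05 and a change of 1 or more. Nod1 was the only 1 of the 53 genes to pass both, which 3.07% of all genes tested passed. Nod1 kept an unadjusted p under 0.05 with any 1 library left out (log2 fold change -1.27 to -0.88). Naip1, a relative of Naip5 that detects the needle protein of bacterial secretion systems, had 74.4, 159.4 and 124.1 normalized counts in control and 35.2, 90.3 and 56.6 in M-Δx3,4. Its groups overlapped, and the log2 fold change was -0.98 (unadjusted p = 0.0387, adjusted p = 0.984, edgeR's quasi-likelihood test). The DNA sensor Cgas, the most abundant of this role on the mean of all 6 libraries though below Nod1 in control, had a log2 fold change of 0.10, and the nucleic acid sensor Zbp1 one of 0.19.

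Adaptors and regulators of assembly were lower in 10 of 14 tested, and none had an unadjusted p under 0.05. The log2 fold changes were -0.18 for Pstpip1, a partner of pyrin and the most abundant of this role, -0.38 for Txnip, -0.38 for the ATP-gated channel P2rx7 and 0.24 for the Nlrp3 partner Nek7. Other caspases and death-domain genes were split, with 5 higher and 4 lower. Cflar, an inhibitor of caspase-8 and the most abundant of this role, had 517.2, 291.2 and 266.8 normalized counts in control and 587.9, 491.3 and 684.7 in M-Δx3,4, with control replicate 1 above M-Δx3,4 replicate 2. Its log2 fold change was 0.71 (unadjusted p = 0.0537, adjusted p = 0.984, edgeR's quasi-likelihood test), and the unadjusted p fell under 0.05 in several alternatives (0.0413 in DESeq2, 0.0337 in limma-voom and 0.0448 with the replicate block). The necroptosis genes Ripk3 and Mlkl had log2 fold changes of -0.22 and 0.28.

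Of the genes of pore formation and membrane repair 3 were tested, with Ninj1, which ruptures the membrane of dying cells, at a log2 fold change of -0.17 and Chmp4b, a subunit of the repair machinery, at 0.17. The cytokine genes included the largest counts of the pathway. Il1b had 1198.3, 750.9 and 602.1 normalized counts in control and 678.8, 616.6 and 809.3 in M-Δx3,4, with overlapping libraries and a log2 fold change of -0.28. Il1rn, the receptor antagonist of IL-1, had 20041.1, 10485.7 and 4636.0 in control and 9303.3, 10559.9 and 10656.8 in M-Δx3,4, so its control range enclosed the M-Δx3,4 values (log2 fold change -0.20). Il1a had 0 to 9 raw counts a library and a log2 fold change of -0.42. Il18bp, the secreted inhibitor of IL-18, was lower in every M-Δx3,4 library, with 89.5, 111.4 and 95.1 normalized counts in control and 71.4, 47.6 and 49.7 in M-Δx3,4. Its log2 fold change was -0.81 (standard error 0.37, unadjusted p = 0.0432, adjusted p = 0.984, edgeR's quasi-likelihood test), beside -0.31 for Il18 itself, and whether the 2 differ was not tested. The unadjusted p of Naip1 and of Il18bp stayed under 0.05 in 3 of the 6 fits that left out a library. That of Il18bp was not under 0.05 with library totals alone, with no filter on low counts or with the replicate block. Priming genes were lower in 8 of 10 tested, and none had an unadjusted p under 0.05. Irf1, an interferon-induced transcription factor and the most abundant of them, stood at 2836.5 ± 298.5 in control and at 2108.2 ± 217.0 in M-Δx3,4 (normalized counts), a log2 fold change of -0.43 with libraries that did not overlap.

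**Figure D5:**
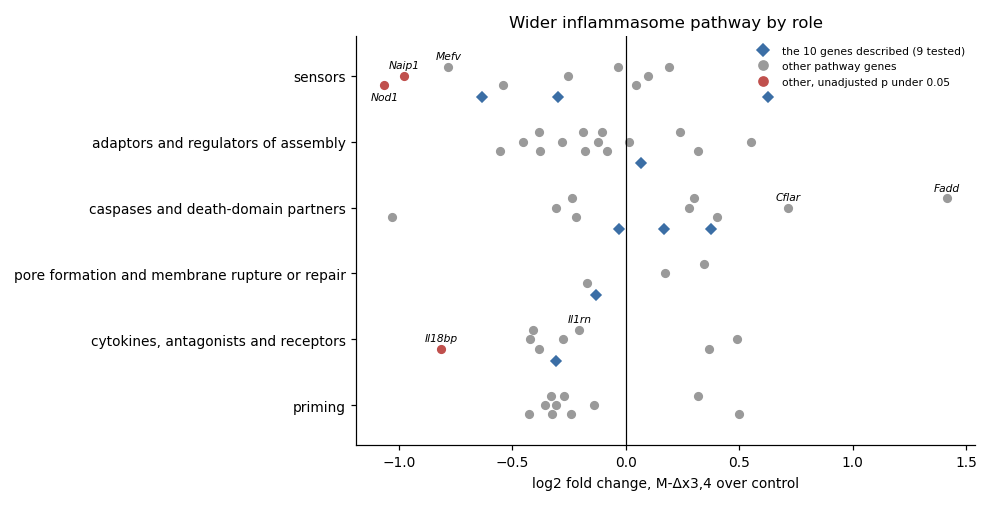
Log2 fold change of M-Δx3,4 over control (horizontal axis) for the 9 genes tested of the 10 and for 53 other genes of the pathway, in rows by role. The genes with an unadjusted p under 0.05 (Nod1, Naip1 and Il18bp) all lie below 0, and Fadd lies farthest to the right at 1.42 from 1 to 15 raw counts a library.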

How the data were processed

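RNA of 6 BMDM cultures was made into 3′ mRNA libraries (QuantSeq) and sequenced on an Ion Proton. According to the methods and the submitters' processing notes, the authors aligned reads to mm10 with TopHat2 (2.1.1) and Bowtie2, and counted them on 3′ UTR regions of Ensembl transcripts with metaseqR2. The authors deposited raw counts per region and TPM values. The TPM values were proportional to the count over the summed region length within 2%. This was checked in control replicate 1 only, on transcripts above a low-count limit. Columns of their own comparison (p-values, fold changes) were not used, nor were 18 other per-sample columns.

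Region counts were summed per transcript. With median-of-ratios factors, transcripts above 4.89 normalized counts (the median of all) in 1 library or more entered the test, and the groups were compared by edgeR (4.0.16) quasi-likelihood tests with Benjamini-Hochberg adjustment over all transcripts tested. Alternatives used DESeq2 (1.42.0), limma-voom (3.58.1), other scalings and filters, a replicate block and leaving out each library. Code was tested on simulated data. Exact permutation tests were two-sided, and a floor of 3 counts covers counting error only.

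The 10 genes and the lists were chosen with earlier results of these data known. Named pathway genes were a fixed set of cytokines, partners and effectors, those with an unadjusted p under 0.05 and the most abundant of each role, of which some are not reported here. Mefv, Nod2, Ripk1, Fadd and ENSMUST00000238348 were named after their values were seen.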

Additional observations from a re-analysis of the deposited data

How the results depend on the processing

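Under TMM scaling, library totals alone, DESeq2, limma-voom, 3 other filters, 1 transcript per gene, identical transcripts taken once and the replicate block, none of the genes tested among the 10 had an unadjusted p under 0.05, and none changed sign. A minimum of 10 counts in every library left 7 of them. With each library left out in turn, the number with an unadjusted p under 0.05 ran from 0 to 1, as did the number that also reached a log2 fold change of 1 (Casp4, without control replicate 1). The median log2 fold change, -0.03 with all libraries, ran from -0.0379 to 0.103, with 0.0536 without control replicate 1 and 0.103 without M-Δx3,4 replicate 2. In the same fits Casp1 ran from -0.17 to 0.15, Casp4 from -0.01 to 1.55, Pycard from -0.04 to 0.28, Gsdmd from -0.40 to 0.04, Naip5 from -0.72 to 0.11 and Casp8 from -0.04 to 0.51 (log2 fold changes).

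Of the 53 other pathway genes, 1 passed both limits with all libraries. It was 2 in limma-voom, 2 with 1 transcript per gene and 2 with the replicate block, where Naip1 joined Nod1 each time. Leaving out a library gave 0 (without control replicate 3) to 5 (without control replicate 1), and 1 to 8 genes with an unadjusted p under 0.05 instead of 3. The 8 were of 52 tested without control replicate 1, a fit where 16.0% of all genes tested had such a p. That share was 2.43% to 3.30% in the remaining fits without 1 library. The cause was not tested. Cflar, higher in M-Δx3,4, had an unadjusted p under 0.05 with DESeq2, limma-voom, library totals alone, no filter, at least 10 counts in every library, the replicate block and without control replicate 1. Il18bp did not with library totals alone, no filter or the replicate block. With library totals alone and with the block the 3 genes were thus Nod1 and Naip1, lower, and Cflar, higher. Same-numbered libraries deviated from their group means with correlations of -0.213, 0.537 and -0.309, and not every library correlated best with its own number, so the numbers were not taken to pair the samples. No correction for the markers of other cells was made, and counts of under 10 in a library leave Nlrc4, Naip5 and Casp4 the least certain.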
